A study of Mus musculus with 6 samples.

Results

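Ifit1, Ifit2 and Ifit3 were followed in infarcted mouse hearts that had received either control mimic or a mixture of miR-19a and miR-19b mimics. The rule took the rows of the expression table whose gene name is Ifit1, Ifit2 or Ifit3, and it found 3 of the 26012 genes listed. No measured value entered the rule, but the members and the lists used below were chosen with earlier results of these data known. All 6 hearts came from male C57BL/6 mice that were 8 weeks of age and had their left anterior descending coronary artery ligated. Control hearts (n = 3) received control mimic by injection into the heart right after ligation, and the other hearts (n = 3) received miR-19a/19b mimics, at 10 μg per heart in both groups. Ventricles were collected on day 4 after myocardial infarction (MI), and polyadenylated RNA was sequenced. There were no hearts without MI or without injection, so each value below is a level in an injected, infarcted heart.

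The Ifit genes encode interferon-induced proteins with tetratricopeptide repeats, helical repeats that form a groove for RNA or for other proteins. They have no known enzymatic activity. Ifit1 binds RNA whose cap lacks the methyl group that marks the host's own mRNA and keeps it from being translated, Ifit2 binds RNA and has been linked to cell death, and Ifit3 acts with its relatives as an adaptor. In most cells they are scarce until type I interferon, or a nucleic acid sensor acting through Irf3, turns them on. Interferon acts through the receptor chains Ifnar1 and Ifnar2 and the kinases Jak1 and Tyk2 on a complex that holds Stat2 and Irf9 and binds the interferon-stimulated response element (ISRE) in promoters. In the infarcted heart, macrophages and monocytes that take up the DNA of dying cells are known to show such a response.

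The mimics carry the mature sequences of miR-19a and miR-19b, which are shown because the seed they share defines the treatment. Bases 2 to 8, the seed, are in capitals, and the sequences are those of RefSeq on GRCm38.p6.
mmu-miR-19a-3p: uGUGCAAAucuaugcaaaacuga
mmu-miR-19b-3p: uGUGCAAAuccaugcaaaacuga
Over 23 bases the 2 sequences differ at 1 base, U11C, counted from the 5′ end of miR-19a. The libraries hold polyadenylated RNA, so the mature miRNAs themselves were not measured.

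Levels are given as normalized counts, which are reads on a gene divided by a size factor of the library. Reads on genes ranged from 19398196 to 23645308 per heart. The spread between hearts of a group was well beyond that of counting reads, with a chi-square per degree of freedom of 9.48 to 123 for pairs of hearts, and p-values measure the spread between these hearts. Of the libraries, 2 stood apart. In miR-19a/19b mimic replicate 3, 7 cardiomyocyte markers (such as Myh6 and Tnnt2) summed to 270312 normalized counts, against 440494 to 795522 in the other hearts. The defining markers of the labelled tissue were thus abundant in every library. In miR-19a/19b mimic replicate 1, 7 skeletal muscle markers summed to 1859 normalized counts, against 23.4 to 57.1 in the other hearts. Values without these libraries are given with the results.

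Ifit1, which holds back mRNA with an unmethylated cap, lies on the plus strand of chromosome 19 from 34640871 to 34650009 (ENSMUSG00000034459, GRCm38) and has 2 exons, with a coding sequence of 1392 bases. In control mimic hearts its normalized counts were 1168, 1442 and 965 in replicates 1, 2 and 3. With the miR-19a/19b mimics, replicates 1, 2 and 3 had 407, 687 and 655. Every miR-19a/19b mimic heart was below every control heart, and the groups did not overlap. The means were 1192 ± 240 (SD, n = 3) and 583 ± 153, and the ratio of the geometric means was 0.483. On the scale of log2(normalized count + 1) the difference was -1.05 with a standard error of 0.22 (95% interval -1.54 to -0.56). It was the largest difference of the 3 members.

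Ifit2, on the plus strand from 34550694 to 34576419 (ENSMUSG00000045932), has 3 exons in its longest transcript and a coding sequence of 1413 bases. Its normalized counts were 1757, 1776 and 1591 in control mimic hearts. In miR-19a/19b mimic hearts they were 895, 1128 and 1089. Here too the groups did not overlap, and within a group the hearts lay closer together than for the other 2 members. The SD was 5.97% of the mean in control hearts and 12% with the miR-19a/19b mimics, against 20.1% and 26.3% for Ifit1 and 24.2% and 28.9% for Ifit3. The means were 1708 ± 102 and 1037 ± 125 (SD, n = 3), a difference of -0.72 (log2) with a standard error of 0.12 (95% interval -0.99 to -0.46).

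Ifit3, the adaptor of the family, lies between the other 2 members from 34583531 to 34588731 (ENSMUSG00000074896), with 2 exons and a coding sequence of 1212 bases. In control mimic hearts it had 1785, 2505 and 1605 normalized counts, while miR-19a/19b mimic hearts had 727, 1331 and 1117. The groups did not overlap, although the highest miR-19a/19b mimic heart came closer to the lowest control heart than for Ifit1 or Ifit2. The means were 1965 ± 476 and 1058 ± 306 (SD, n = 3), and the difference was -0.91 (log2) with a standard error of 0.23 (95% interval -1.44 to -0.38).

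**Figure D1:**
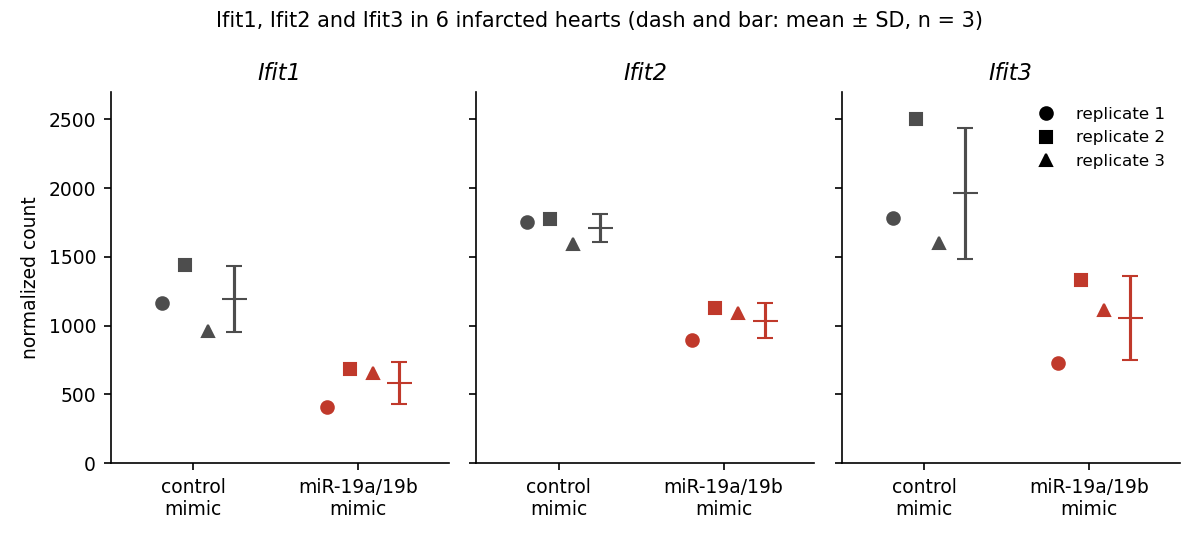
Normalized counts (y axis, from 0) of Ifit1, Ifit2 and Ifit3 in the 3 control mimic hearts (grey) and the 3 miR-19a/19b mimic hearts (red), 1 point per heart with the symbol giving the replicate, and the mean ± SD beside them. For each gene the 3 red points lie below all grey points, with Ifit2 at 895 to 1128 against 1591 to 1776.

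In limma, fitted over 21126 genes, the unadjusted p-values were 0.000165 for Ifit2, 0.000942 for Ifit1 and 0.00379 for Ifit3. With the mimics all 3 were lower at an unadjusted p under 0.05, a rule that 2.63% of the genes tested met in that direction. By this p-value Ifit2 ranked 8, Ifit1 ranked 27 and Ifit3 ranked 89 among the genes tested. After Benjamini-Hochberg adjustment over all genes tested none of the 3 passed, with adjusted p-values from limma of 0.396, 0.724 and 0.886, and 0 genes passed at all (0% of the genes tested), where 848 had an unadjusted p under 0.05. Groups that did not overlap, with miR-19a/19b mimic hearts lower, were seen for 5.3% of the genes tested. On the reads behind the values, DESeq2's Wald test gave adjusted p-values of 0.000782 for Ifit2, 0.0101 for Ifit1 and 0.117 for Ifit3, where 0.198% of genes with an adjusted p-value were called lower. In edgeR's quasi-likelihood test on the same reads the adjusted p-values were 0.415 for Ifit2, 0.720 for Ifit1 and 0.962 for Ifit3.

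Without miR-19a/19b mimic replicate 3, the heart with few cardiomyocyte transcripts, the differences were -1.15 for Ifit1, -0.76 for Ifit2 and -0.97 for Ifit3, and the adjusted p-values from limma were 0.0210, 0.0105 and 0.0499. In that fit 0.774% of the genes tested were called lower. Without miR-19a/19b mimic replicate 1, the heart with skeletal muscle transcripts and the lowest value of each member, the differences were -0.81, -0.62 and -0.66. The adjusted p-values from limma were then 0.879, 0.621 and 0.9998, and 0 genes passed. With only miR-19a/19b mimic replicate 2 kept, a value with no test, Ifit1 stood at 687 against a lowest control of 965, Ifit2 at 1128 against 1591 and Ifit3 at 1331 against 1605.

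The 3 members ranked the 6 hearts in the same order. From high to low it was control mimic replicates 2, 1 and 3 and then miR-19a/19b mimic replicates 2, 3 and 1. Of the genes tested, 52 (0.246%) had this order, and besides the 3 members they included their relative Ifit3b. The order was not particular to Ifit genes. It was shared by 8 of the 25 other interferon-induced effectors and 3 of the 12 nucleic acid sensors and adaptors listed below. The reads behind the members numbered 378 to 2567 per heart, which gives a counting error of 1.97% to 5.14% of a value. The SD within a group, 5.97% to 28.9% of the mean, was larger for each member. Not every step of the order exceeded counting error. In control mimic replicates 2 and 1, Ifit2 had 1776 and 1757 normalized counts, with counting errors of 2.34% and 2.51%.

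Whether the mimics moved the members by different amounts was asked with the log2 ratio of each pair in each heart. Ifit1 over Ifit3 varied little, from -0.95 to -0.61 across the 6 hearts. Its mean was -0.71 ± 0.09 in control hearts and -0.85 ± 0.09 with the miR-19a/19b mimics (SD, n = 3). Ifit1 over Ifit2 was -0.54 ± 0.22 and -0.86 ± 0.24, and Ifit2 over Ifit3 was -0.18 ± 0.28 and 0.01 ± 0.27. In exact permutation tests (two-sided, 3 pairs) the p-values were 0.2, 0.2 and 0.6, with adjusted values of 0.3, 0.3 and 0.6, and 3 hearts against 3 cannot go below 0.1. A difference between members in the size of the change was not detectable with this number of hearts.

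Per kilobase of the gene length listed by the authors, Ifit3 was the most abundant member. In control mimic hearts it had 1126 ± 273 normalized counts per kilobase, Ifit1 had 449 ± 90.2 and Ifit2 had 435 ± 26.0 (SD, n = 3). Ifit1 and Ifit2 did not differ beyond their spread, and Ifit3 was above both in every control heart, at 920 to 1436. In miR-19a/19b mimic hearts the levels per kilobase were 607 ± 175, 219 ± 57.7 and 264 ± 31.8. Over all hearts this placed Ifit3 above 93.8% of the genes tested, Ifit2 above 84.4% and Ifit1 above 83.7%. Part of Ifit3 cannot be told from Ifit3b in the reads. The coding sequences of the 2 genes are 99.1% identical, and 18.5% of the stretches of 150 bases (the read length) in the Ifit3 transcript also occur in that of Ifit3b. For Ifit1 this share was 1.24% (with Ifit1bl2) and for Ifit2 it was 0%. The members themselves are far apart, with coding identities of 52.1% to 56.3%, and no exon of theirs overlaps another gene in GENCODE M21.

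The family sits in 1 cluster of 99316 bases on chromosome 19, which holds 6 Ifit genes, the 3 members and Ifit3b, Ifit1bl1 and Ifit1bl2. Ifit3b, the near copy of Ifit3, had 555, 620 and 497 normalized counts in control mimic hearts and 218, 360 and 297 in miR-19a/19b mimic hearts. The groups did not overlap, and the difference was -0.95 (log2, standard error 0.18, unadjusted p = 0.000558 and adjusted p = 0.561 from limma). Ifit1bl1, a relative of Ifit1, had 164, 151 and 138 and then 81.8, 134 and 86.4 normalized counts, a difference of -0.61 (standard error 0.21, unadjusted p = 0.0162 and adjusted p = 1.0 from limma). Ifit1bl2 was scarce, at 26.5, 34.2 and 34.6 in control hearts and 35.5, 43.3 and 11.2 in miR-19a/19b mimic hearts. Its groups overlapped and its difference of -0.27 had a 95% interval from -1.30 to 0.77. In all, 5 of the 6 Ifit genes were lower at an unadjusted p under 0.05, against 2.63% of the genes tested.

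Within 250000 bases on either side of the members, the table lists 6 genes of other families, all of them tested. None of these was lower at an unadjusted p under 0.05 in limma, and 1 was higher, where 1.39% of the genes tested were. Fas, a receptor that triggers cell death, had 351, 338 and 316 normalized counts in control mimic hearts and 398, 440 and 369 in miR-19a/19b mimic hearts (0.26 on the log2 scale, unadjusted p = 0.0493 from limma). The groups did not overlap, as for 3.9% of the genes tested in that direction, and the adjusted p-value from limma was 1.0. Ch25h, an enzyme that makes an antiviral oxysterol and is itself induced by interferon in macrophages, differed by -0.06 (95% interval -0.57 to 0.46). Lipa, the lysosomal acid lipase, differed by -0.05 (95% interval -0.43 to 0.34).

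**Figure D2:**
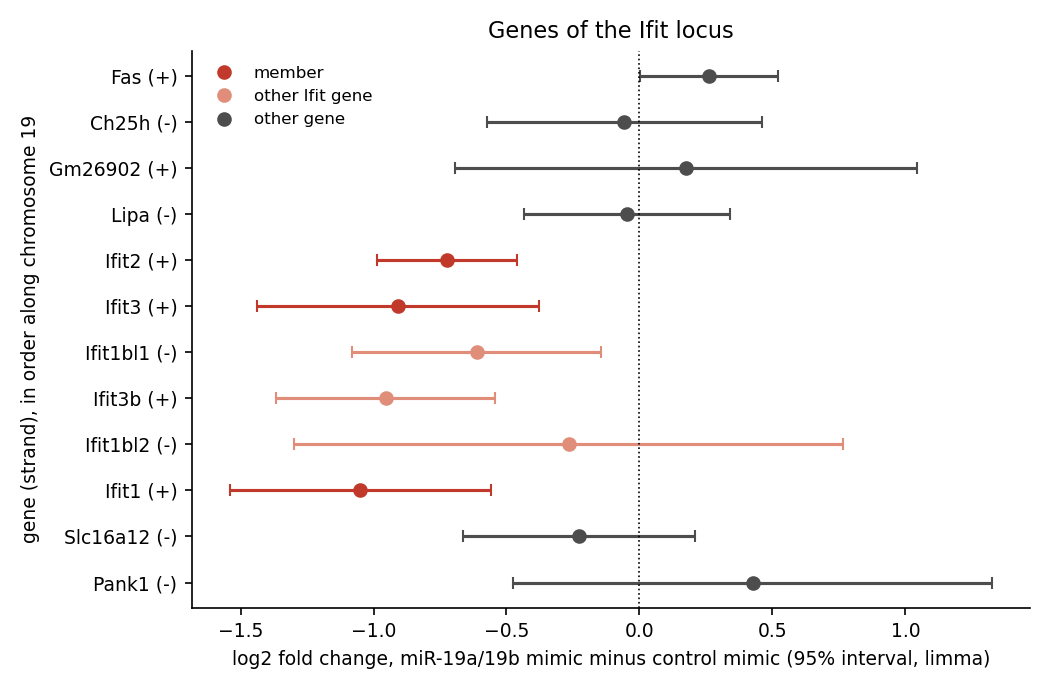
Log2 fold change of miR-19a/19b mimic over control mimic hearts (x axis, points) with its 95% interval from limma (bars) for the 12 genes within 250000 bases of the members, in order along chromosome 19 with the strand in brackets. The members (red) and Ifit3b lie between -1.05 and -0.72, while the intervals of 5 of the 6 genes of other families include 0 and that of Fas lies above it.

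The promoters of the members are shown because the genes moved together and because the ISRE is the element through which interferon acts on them. Each window runs from 250 bases before to 50 after a start site listed by RefSeq (GRCm38.p6, plus strand of chromosome 19), and the core of the ISRE is in capitals. The core was searched on both strands as GAAA, any 2 bases and GAAA, with overlapping matches counted, and in these windows it appears as its reverse complement.
Ifit1, chr19:34640639-34640938: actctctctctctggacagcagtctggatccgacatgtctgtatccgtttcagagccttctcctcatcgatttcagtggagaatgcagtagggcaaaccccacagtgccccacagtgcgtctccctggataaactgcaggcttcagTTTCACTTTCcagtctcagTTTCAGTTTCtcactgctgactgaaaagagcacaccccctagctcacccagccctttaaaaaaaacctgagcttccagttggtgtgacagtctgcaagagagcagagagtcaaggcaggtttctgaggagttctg
Ifit3, chr19:34583279-34583578: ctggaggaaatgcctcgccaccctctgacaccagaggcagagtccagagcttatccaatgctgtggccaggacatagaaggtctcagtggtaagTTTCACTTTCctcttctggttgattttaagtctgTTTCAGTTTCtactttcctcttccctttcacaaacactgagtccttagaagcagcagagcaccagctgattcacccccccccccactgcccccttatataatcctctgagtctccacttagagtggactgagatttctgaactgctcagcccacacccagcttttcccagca
Ifit2, chr19:34550444-34550743: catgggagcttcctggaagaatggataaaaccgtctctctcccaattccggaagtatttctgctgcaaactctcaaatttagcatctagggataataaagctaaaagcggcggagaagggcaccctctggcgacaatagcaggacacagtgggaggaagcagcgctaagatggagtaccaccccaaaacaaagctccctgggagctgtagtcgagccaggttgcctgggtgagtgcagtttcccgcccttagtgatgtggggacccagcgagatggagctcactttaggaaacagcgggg
Ifit1 holds 2 matches, TTTCACTTTC and TTTCAGTTTC, that begin 104 and 85 bases before the start site. Ifit3 holds the same 2 words 156 and 122 bases before its start. Neither of the 2 windows listed for Ifit2 holds the core, which says only that these letters are not in those windows. Of 32851 promoter windows of the same length 3.44% hold at least 1 match and 0.225% hold 2 or more. Among the other interferon-induced effectors listed below, 8 of the 19 with a window hold a match, where 3.75% of 13145 tested genes do.

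Ifit3b repeats the Ifit3 window with 94.2% identity over 274 aligned positions, and with both words. Ifit1bl2 is transcribed away from Ifit1 from a start site 146 bases apart. Their windows overlap by 245 bases, and the 2 matches of Ifit1 and of Ifit1bl2 are the same bases read from opposite strands. Ifit1bl2 had only 13 to 42 reads per heart, against 378 to 1478 for Ifit1. The log2 ratio of Ifit1 to Ifit1bl2 was 5.18 ± 0.36 in control hearts and 4.39 ± 1.19 with the miR-19a/19b mimics (SD, n = 3), and an exact permutation test of the difference gave p = 0.4 (two-sided, adjusted p = 0.6 over 3 pairs). The log2 ratio of Ifit3 to Ifit3b was 1.80 ± 0.19 and 1.84 ± 0.10, with an exact p of 0.8.

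Matches to the miR-19 seed were counted in the longest 3′ untranslated region of GENCODE M21, as the 8-mer TTTGCACA or the 7-mers TTTGCAC and TTGCACA. Ifit1 (1152 bases) and Ifit3 (464 bases) hold 0 matches. Ifit2 holds 1 match of the 7-mer in 1945 bases, at base 399 after the stop codon, shown with the match in capitals.
Ifit2 site: tattttagataTTGCACAgcattttcttca
Among tested genes with a region of similar length, 22.1% hold a match. Ifit3b, with 764 bases, holds 1 match of the 8-mer, where 10.1% of genes of similar length hold any.

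The pathway that acts on the Ifit genes was described through lists ordered by role, with the count of genes that were lower at an unadjusted p under 0.05 set against the 2.63% of all genes tested, and the count whose groups did not overlap, with the mimics lower, set against 5.3%. The lists were chosen with earlier results of these data known, so these shares give a scale and not a test. No gene of these lists passed after adjustment over all genes tested in limma. Over all lists except those of Ifit genes, 30 genes were lower and 0 higher at the unadjusted threshold. These counts were 28 and 0 without miR-19a/19b mimic replicate 1, and 42 and 2 when miR-19a/19b mimic replicate 3 was left out. Over all genes tested the median difference was 0.00 (log2). Of the interferons, 2 of 10 listed symbols were found. Ifnb1, the first type I interferon made by many cells, had 6 reads in control mimic replicate 2 and 0 in the other 5 hearts, where a count of 0 allows up to 3 reads. Ifng, made by T and NK cells, had 1 or 2 reads per heart. Transcripts of these 2 interferons were thus near the limit of detection in both groups. The other listed interferons were not found, so their levels are unknown.

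Among receptors and kinases, 0 of 7 were lower at the unadjusted threshold, and the median was -0.10. Ifnar1 had 1842 ± 196 and 1824 ± 295 normalized counts (SD, n = 3), a difference of -0.02. Ifnar2 differed by -0.16, Jak1 by -0.07, Jak2 by -0.15, Tyk2 by -0.10 and Ifngr2 by 0.03. Ifngr1, a chain of the receptor for interferon gamma, differed by -0.21 (unadjusted p = 0.0700 from limma). The groups did not overlap for 3 of 7 (Ifngr1, Jak1 and Jak2).

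Of the transcription factors, 4 of 8 were lower and 0 were higher, with a median of -0.27, and the groups did not overlap for 4 of 8. Stat2 had 1850, 2204 and 2028 normalized counts in control hearts and 1102, 1438 and 1523 with the miR-19a/19b mimics, a difference of -0.59 (unadjusted p = 0.00220 from limma). Irf9 differed by -0.33 (unadjusted p = 0.0178 from limma). Irf7, which amplifies the response and is itself induced by interferon, had 5031 ± 936 and 3021 ± 526 normalized counts (SD, n = 3), with a difference of -0.73 (unadjusted p = 0.00189 from limma). For Stat2, Irf9 and Irf7 the groups did not overlap. Irf3, which is present before the response and starts it, differed by 0.07, and Irf1, Irf5 and Irf8 by -0.13, -0.13 and -0.20, with overlapping groups.

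Feedback was represented by 5 genes, of which 1 was lower, and only for that 1 did the groups not overlap. Usp18, a protease that removes Isg15 from proteins and blocks the interferon receptor, had 472, 726 and 467 normalized counts in control hearts and 238, 318 and 367 in miR-19a/19b mimic hearts (-0.84, unadjusted p = 0.00328 from limma). Socs1, an inhibitor of Jak kinases, had 115, 143 and 90.6 and then 58.1, 105 and 138, and its groups overlapped. Its difference was -0.27 with a standard error of 0.31. Socs3, its relative, differed by -0.14, Ptpn2, a phosphatase of Jak kinases, by -0.09 and Pias1 by 0.04.

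Sensors of nucleic acids and their adaptors had 4 of 12 genes lower and 0 higher, with a median of -0.18. Groups without overlap were seen for 4 genes that were lower and for 1 that was higher with the mimics (Ticam1, an adaptor of Toll-like receptors, at 0.20, named after its values were seen), where 3.9% of the genes tested were higher without overlap. Ddx58 (RIG-I), a sensor of viral RNA, was the most abundant, with 1646 ± 226 and 1132 ± 161 normalized counts (SD, n = 3; -0.54, unadjusted p = 0.00412 from limma). The adaptor Tmem173 (STING) differed by -0.15 and the kinase Tbk1 by -0.06, both with overlapping groups.

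Of other interferon-induced effectors, 21 of 25 were lower and 0 higher at the unadjusted threshold, the median was -0.63, and the groups did not overlap for 21 of 25. Isg15, a ubiquitin-like modifier, had 1299, 1352 and 1129 normalized counts in control hearts and 468, 873 and 819 in miR-19a/19b mimic hearts (-0.85, unadjusted p = 0.00359 from limma). Bst2 (tetherin) differed by -0.62, Oasl2 by -0.65 and Eif2ak2 (PKR), a kinase that halts translation, by -0.45. Samhd1 was close to the threshold (-0.33, unadjusted p = 0.0499 from limma). The differences of Ifit1, Ifit2 and Ifit3 lay within the range of this list, -1.18 to 0.03.

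Genes of mRNA cap methylation and of translation initiation were listed too. Of the genes that serve methylation of the mRNA cap, 0 of 4 were lower or higher, and Cmtr1, which adds the methyl group whose absence Ifit1 reads, had 41.7 ± 7.27 and 37.3 ± 8.30 normalized counts (SD, n = 3). Among 13 subunits of the initiation factor eIF3, to which Ifit1 and Ifit2 bind, and the cap-binding factor Eif4e, 0 of 14 passed in either direction, and all lay between -0.07 and 0.14. Eif3a, the most abundant, had 7052 ± 149 and 6737 ± 213 normalized counts. It was the only 1 of the 14 whose groups did not overlap, with the mimics lower, as for 5.3% of the genes tested. For the cap methylation genes the groups overlapped.

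**Figure D3:**
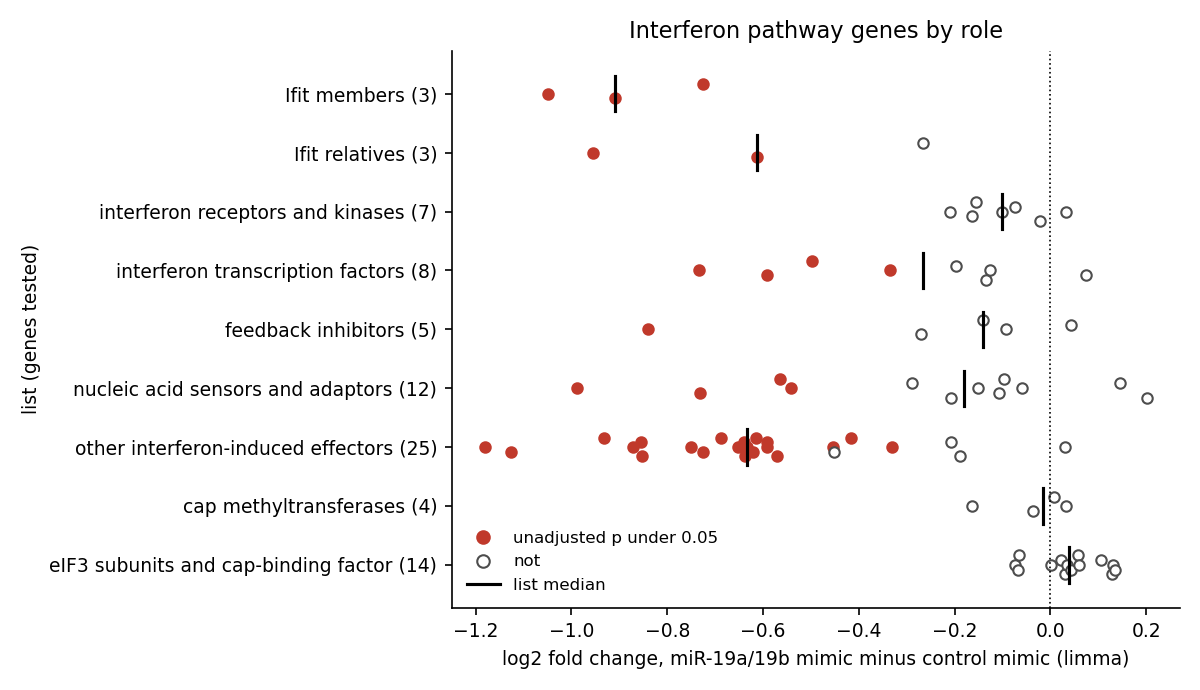
Log2 fold change of miR-19a/19b mimic over control mimic hearts (x axis) for each gene of the lists by role (rows, with the number of genes tested), filled where the unadjusted p from limma was under 0.05, with a black line at the list's median. The Ifit members and the other interferon-induced effectors have medians of -0.91 and -0.63, and the receptors, cap methylation genes and eIF3 subunits sit between -0.21 and 0.14.

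The genes whose pattern over the 6 hearts was most like the members were found among 12735 other genes with a mean of at least 50 normalized counts. Likeness was the root mean square difference between a gene's log2 values, centred on their mean, and the mean centred values of the members. The median over these genes was 0.53. The 10 most alike were Oasl1 (0.064), Ifit3b (0.068), Mx2 (0.079), Plac8 (0.082), Dhx58 (0.094), Ctsw (0.10), Isg15 (0.11), Zbp1 (0.12), Oas1g (0.12) and Gm12250 (0.12). Oasl1 and Oas1g belong to the family of oligoadenylate synthetases, Mx2 belongs to the family of Mx GTPases and is listed in the file as a polymorphic pseudogene, Dhx58 (LGP2) and Zbp1 are sensors of nucleic acids, and Ctsw is a protease of cytotoxic lymphocytes. Plac8 was also on the list of monocyte markers. Oasl1, the nearest, had 542, 707 and 468 normalized counts in control hearts and 219, 387 and 343 in miR-19a/19b mimic hearts. Ifit1bl1 ranked 73. When profiles were centred within each group, which takes out the difference between groups, 5 of the 10 were again among the nearest 10 (Mx2, Oas1g, Dhx58, Ifit3b and Oasl1).

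**Figure D4:**
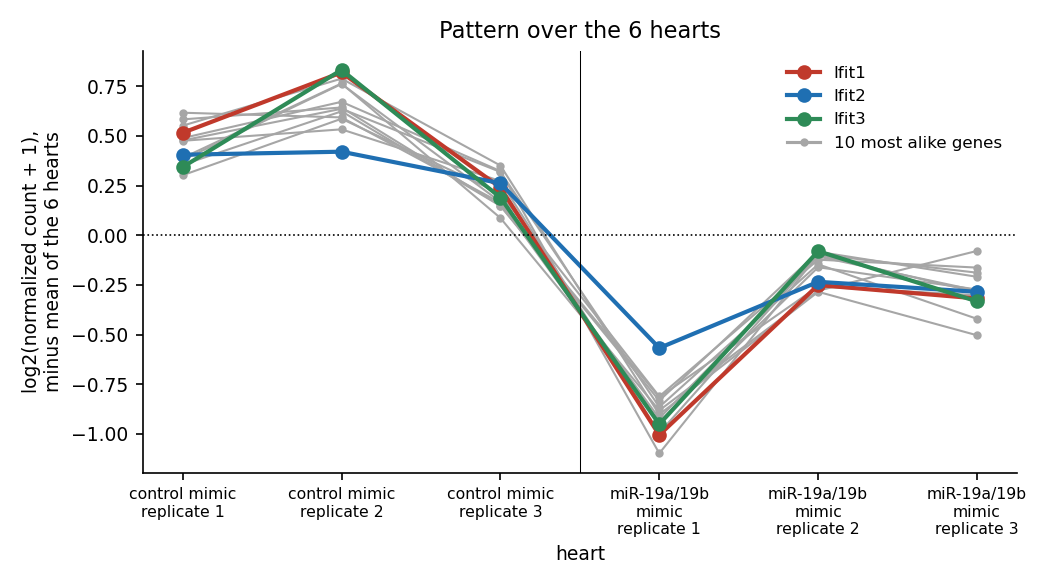
Log2(normalized count + 1) minus its mean over the 6 hearts (y axis) for Ifit1, Ifit2, Ifit3 (colours) and the 10 most alike genes (grey) in each heart (x axis), with lines joining the values of 1 gene and no order implied among replicates. Members and the 10 genes are above 0 in every control mimic heart and below 0 in every miR-19a/19b mimic heart, and Ifit2 departs least in miR-19a/19b mimic replicate 1.

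Whole ventricle was sequenced, so fewer cells that express a gene and less of its RNA per cell cannot be told apart. Markers of other cells moved with the members. The 4 markers of inflammatory monocytes (Ly6c2, Ccr2, Plac8 and Chil3) summed to 4385 to 5889 normalized counts in control hearts and 2689 to 3842 with the miR-19a/19b mimics, with 3 of 4 lower at the unadjusted threshold. The 6 T cell markers summed to 199 to 287 and 151 to 175, with 2 of 6 lower. Of all genes tested, 2.63% were lower at this threshold. Sums of the 8 macrophage markers overlapped, at 68538 to 78853 and 55496 to 86334, with 0 of 8 lower, as did those of neutrophil, plasmacytoid dendritic cell, fibroblast, endothelial and cardiomyocyte markers. Of the 5 neutrophil markers, 1 (Retnlg) was lower at the unadjusted threshold. Tcf4 made up nearly all of the plasmacytoid dendritic cell sum, with means of 3542 in control and 3524 in miR-19a/19b mimic hearts. Siglech (21.5 and 13.4) and Ccr9 (7.56 and 4.29) had few normalized counts, and their groups overlapped. No marker of these lists was at 0 in all hearts.

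Set against these sums, a scale chosen after the values were seen, the members gave different pictures. Per 100 normalized counts of the monocyte markers, Ifit1, Ifit2 and Ifit3 together had 81.8, 97.2 and 94.9 in control hearts and 75.5, 97.0 and 74.5 in miR-19a/19b mimic hearts. The groups overlapped, and the difference was -0.16 (log2). This scale was not independent of the members' pattern. Plac8, 1 of these 4 markers, was among the 10 genes most alike to the members, and 3 of the 4 markers were themselves lower. Per 100 normalized counts of the macrophage markers the control hearts had 6.87, 7.26 and 5.94, and the miR-19a/19b mimic hearts had 3.66, 4.83 and 3.31. On this scale every miR-19a/19b mimic heart was below every control heart, with a difference of -0.78 (p = 0.1 in a two-sided exact permutation test, the lowest that 3 against 3 allows, adjusted p = 0.3 over 5 marker lists). Lyz2 was the largest part of the macrophage sum, with means of 38410 in control and 37511 in miR-19a/19b mimic hearts. The other macrophage markers thus weighed less on this scale. Against the T cell, neutrophil and cardiomyocyte markers the groups overlapped. The part of these cells in the lower levels of the members was not tested.

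**Figure D5:**
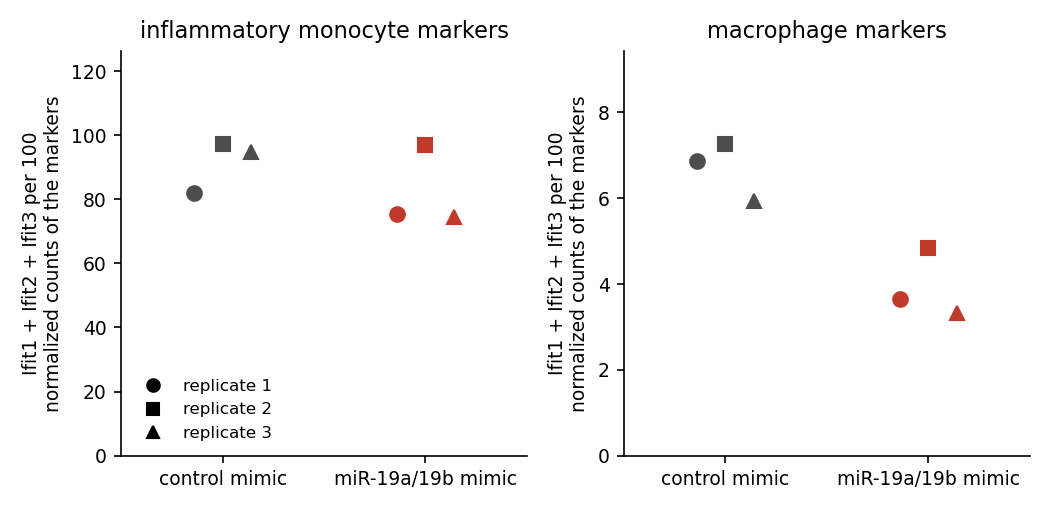
Summed normalized counts of Ifit1, Ifit2 and Ifit3 per 100 normalized counts of 4 inflammatory monocyte markers (left) and of 8 macrophage markers (right), 1 point per heart, with y axes from 0 and control mimic hearts in grey and miR-19a/19b mimic hearts in red. On the left the groups overlap, at 81.8 to 97.2 against 74.5 to 97.0, and on the right they do not, at 5.94 to 7.26 against 3.31 to 4.83. The left scale holds Plac8, which was among the 10 genes most alike to the members.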

How the data were processed

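RNA-seq was made from ventricles of 3 control mimic and 3 miR-19a/19b mimic hearts. The authors removed reads with adapters or of low quality, aligned 150 bp paired-end reads with STAR (2.5.1b), counted them per gene with HTSeq (0.6.0) and deposited a signal, the count of a gene scaled by the library's size factor. The submitters' processing notes also name DESeq2 (1.10.1) and mm9, while 82.7% of the listed starts and ends, including those of the 3 members, are those of GENCODE M21 on GRCm38, so coordinates are given on GRCm38. The authors' fold changes and p-values were not used, nor was their table of called genes. Every value (100%) was a whole multiple of 1 read (within 0.01), so reads were recovered.

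Limma (3.58.1, R 4.3.3) with a trended prior was run on log2(normalized count + 1) over genes with a mean of at least 1, with Benjamini-Hochberg adjustment. This scale understates changes of genes with few reads. edgeR (4.0.16) and DESeq2 (1.42.0) on recovered reads were alternatives, as were other filters and pseudocounts, the replicate number as a block, and each heart left out. Tests were checked on simulated data. Counting strand is not given in the sources used here. Intervals of reads cover counting error only.

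The members and lists were chosen with earlier results of these data known. Named genes were the members, other Ifit genes, genes within 250000 bases, small lists in full, the most abundant genes of longer lists with Isg15, Oasl2, Eif2ak2 and Cmtr1, and the 10 most alike genes. Cell markers are named as the lists of cells they stand for. For the ISRE, 2 longer forms of the core were also looked at before the one reported was taken. Of the genes listed, 1 is not reported here by name. The labels number the replicates and do not name the animals.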

Additional observations from a re-analysis of the deposited data

How the results depend on the processing

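All 3 members were lower at an unadjusted p under 0.05 in each of the 15 alternatives. Leaving out 1 heart at a time, the log2 difference ranged from -1.19 to -0.81 for Ifit1, from -0.79 to -0.62 for Ifit2 and from -1.10 to -0.66 for Ifit3. Their adjusted p-values passed 0.05 only without miR-19a/19b mimic replicate 3 (-1.15, -0.76 and -0.97) and, for Ifit1 (-1.03) and Ifit2 (-0.72), in DESeq2's Wald test. Genes at an adjusted p under 0.05 numbered 0 in limma, 29 (28 lower, 1 higher) in DESeq2 and 0 to 547 with a heart left out. At an unadjusted p they numbered 848 in limma and 610 to 3067 with a heart left out, the highest without miR-19a/19b mimic replicate 3, where 1289 were lower and 1778 higher. What causes these shifts was not tested. Over the alternatives the adjusted p-values ranged from 0.0101 to 1.0 for Ifit1, from 0.000782 to 1.0 for Ifit2 and from 0.0499 to 1.0 for Ifit3. Pathway genes other than Ifit genes numbered 30 at the unadjusted threshold in limma and 27 to 44 in the alternatives.

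No pairing of hearts by the replicate numbers of the labels was seen: deviations of same-numbered hearts correlated at -0.01, -0.02 and -0.11. For differently numbered hearts the correlations ranged from -0.10 to 0.12, so a weak pairing could not be told from none. With the replicate number as a block, limma gave unadjusted p-values of 0.00114, 0.00110 and 0.00116 for Ifit1, Ifit2 and Ifit3 (adjusted 0.845 for each), 641 genes at an unadjusted p under 0.05 and 0 at an adjusted one. Centring within groups kept 5 of the 10 most alike genes, and a minimum mean of 200 kept 7. The depth left Ifnb1, Ifng and Ifit1bl2 poorly determined.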
